A study of Mus musculus with 8 samples.

Results

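The respiratory chain genes are the transcripts of the 5 complexes of oxidative phosphorylation. They were taken by GENCODE M21 symbol: protein-coding genes named Ndufa, Ndufb, Ndufc, Ndufs or Ndufv (complex I), Sdha to Sdhd with the Sdhaf assembly factors (complex II), Uqcr (complex III), Cox4 to Cox8 (complex IV) and Atp5 (complex V), together with every protein-coding gene of the mitochondrial chromosome. Of 25367 genes in the table, 108 had such a name or position, and 104 of these had at least 10 counts in 4 or more libraries. These 104 members comprised 91 nuclear genes and 13 mitochondrially encoded genes, and all 104 were among the 15095 genes tested. The 4 genes left out were the minor isoform genes Cox4i2, Cox6a2 and Ndufa4l2 and the muscle-type Cox8b, with no more than 25 counts in any library. The names also take in 12 assembly factors, which build the complexes without staying in them. Ndufa4 was placed with complex IV, where its protein resides despite its name.

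The study asked which transcripts change when cultured group 2 innate lymphoid cells (ILC2s) are given SC-57461A. The cells were sorted from the large intestine of wild-type C57BL/6 mice and kept in culture for 5 days in medium with the interleukins IL-33, IL-25, IL-7 and IL-2 at 10 ng/mL of each. One group of 4 libraries then received SC-57461A, an inhibitor of leukotriene A4 hydrolase, for 16 h, and the other 4 libraries received vehicle. The mouse strain, the sorting and the cytokine culture were the same in both groups, so every library describes cytokine-stimulated ILC2s and none describes resting cells.

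Libraries held 47376196 to 52564876 counts with SC-57461A and 50313937 to 71155654 with vehicle. No label states whether replicates of a treatment are separate animals or separate cultures, and p-values therefore cover the variation among these libraries alone. The 8 libraries fell into 2 sets that cross the treatments and that the labels do not mention. Set A held SC-57461A replicates 2 and 3 and vehicle replicates 1 and 2, and set B held SC-57461A replicates 1 and 4 and vehicle replicates 3 and 4. The sets were read from summed FPKM, to which these abundant members contribute. All 10 ILC2 marker genes were detected, with summed levels in set A of 7976 to 8404 CPM with SC-57461A and 8222 to 8621 CPM with vehicle, and in set B of 10170.2 to 10533 CPM with SC-57461A and 9250.1 to 9267 CPM with vehicle. The ILC2 markers thus parted the sets, and within set B the treatments. Treatment effects are given from a pooled fit, from a fit with the library set as a term (set-adjusted) and from each set alone.

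The respiratory chain passes electrons from NADH (complex I) and succinate (complex II) through coenzyme Q, complex III, cytochrome c and complex IV to oxygen, and ATP synthase (complex V) uses the resulting proton gradient. Most subunits are encoded in the nucleus and imported, while the mitochondrial chromosome encodes core subunits of every complex except complex II, transcribed as long polycistronic RNAs from both strands. Transcription of many nuclear subunit genes is known to involve NRF1 and the ETS-family factor GABP, whose binding motifs lie close to start sites. Lymphocytes enlarge their mitochondrial capacity when activated, and ILC2s draw on both fatty acids and glucose.

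The promoter sequences of the nuclear members are shown first because they carry a feature that the choice by name did not use. RefSeq promoter windows (GRCm38.p6, 250 bases before to 50 after the start of transcription) could be matched to 76 of the 91 nuclear members. The 8-letter NRF1 core CGCATGCG, which reads the same on both strands, occurred in 11 of the 76 (14.5%), against 559 of all 27025 genes with a window (2.07%). The ETS motif CCGGAAGT, searched on both strands, occurred in 5 of the 76 (6.58%), against 1164 of 27025 genes (4.31%); the letters of the 2 motifs cannot overlap. The 27025 genes were not limited to the 15095 genes tested here, while all 76 members were among those tested, so the shares are of unlike sets. A match is a description of the sequence and not evidence of binding. The NRF1 cores of the 11 members are given below in capitals, each with its flanks and written 5′ to 3′ on the strand of the gene.
Ndufa8 (complex I, chr2:36049329-36049358, minus strand): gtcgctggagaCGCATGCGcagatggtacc
Ndufa11 (complex I, chr17:56717692-56717721, plus strand): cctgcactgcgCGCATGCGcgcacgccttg
Ndufaf4 (complex I assembly, chr4:24897960-24897989, plus strand): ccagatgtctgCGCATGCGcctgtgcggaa
Ndufaf5 (complex I assembly, chr2:140170652-140170681, plus strand): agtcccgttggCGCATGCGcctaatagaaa
Uqcrc1 (complex III, chr9:108936668-108936697, plus strand): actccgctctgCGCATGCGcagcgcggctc
Uqcr11 (complex III, chr10:80406808-80406837, minus strand): gatcgccttcaCGCATGCGctatacgtctg
Cox6a1 (complex IV, chr5:115349101-115349130, minus strand): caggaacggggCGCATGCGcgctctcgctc
Atp5g2 (complex V, chr15:102671070-102671099, minus strand): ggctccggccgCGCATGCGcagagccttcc
Atp5j (complex V, chr16:84835105-84835134, minus strand): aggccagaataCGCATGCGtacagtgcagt
Atp5k (complex V, chr5:108434430-108434459, minus strand): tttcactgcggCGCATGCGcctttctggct
Atp5l (complex V, chr9:44920965-44920992, minus strand): aaccaataaCGCATGCGcatttccccca

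The core began as close as 4 bases before the start of transcription in Uqcr11 and as far as 240 bases before it in Atp5l. In Uqcrc1 and Ndufaf5 it lay after the start. The 11 members span complexes I, III, IV and V. Uqcr11 alone held both motifs. The ETS motif occurred in the windows of Ndufs3, Uqcrh, Uqcr11, Cox8a and Atp5h. Cox8a was the nuclear member with the highest mean level over the 8 libraries and the widest difference between library sets. Its window holds the ETS motif at 2 places on the opposite strand (capitals). The window of Ndufab1, the member with the smallest p-value for the treatment in the set-adjusted fit, holds neither motif and is printed beside it for that contrast.
Cox8a (GRCm38.p6, chr19:7217567-7217866, minus strand): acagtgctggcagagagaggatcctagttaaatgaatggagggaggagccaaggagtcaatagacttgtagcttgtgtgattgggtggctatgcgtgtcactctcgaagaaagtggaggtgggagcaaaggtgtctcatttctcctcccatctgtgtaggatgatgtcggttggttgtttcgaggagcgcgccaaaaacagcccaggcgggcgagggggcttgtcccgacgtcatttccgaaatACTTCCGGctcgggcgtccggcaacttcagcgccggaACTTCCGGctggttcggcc
Ndufab1 (GRCm38.p6, chr7:122101799-122102098, minus strand): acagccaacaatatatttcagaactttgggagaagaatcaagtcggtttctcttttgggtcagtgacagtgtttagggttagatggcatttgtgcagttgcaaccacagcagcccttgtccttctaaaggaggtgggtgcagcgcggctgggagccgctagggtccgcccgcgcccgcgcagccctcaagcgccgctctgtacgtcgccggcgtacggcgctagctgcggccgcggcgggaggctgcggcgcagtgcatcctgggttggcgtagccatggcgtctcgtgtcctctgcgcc

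A further sequence bears on how the mitochondrial genes can be counted. The last bases of mt-Atp8 and the first of mt-Atp6, both subunits of the membrane part of ATP synthase, are the same 43 bases of the mitochondrial chromosome. The shared stretch is printed in capitals from the GENCODE M21 transcripts (GRCm38), so that reads within it belong to both genes.
mt-Atp8/mt-Atp6 overlap (chrM:7927-7969, plus strand): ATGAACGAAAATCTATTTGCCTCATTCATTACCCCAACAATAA

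Mitochondrially encoded transcripts were far more abundant than nuclear ones in these ILC2s. Levels between genes are given in FPKM, fragments scaled by gene length and library total, as deposited by the authors. The median level over mitochondrially encoded members was 42.6 ± 7.13 times the median level over nuclear members (SD, n = 8 libraries). Mean levels over the 8 libraries were 5744 FPKM for mt-Co1, 3654 for mt-Atp8, 2810 for mt-Co2, 2481 for mt-Nd1, 2191 for mt-Cytb and 2119 for mt-Atp6. They were 1854 FPKM for mt-Co3, 1253 for mt-Nd2, 948 for mt-Nd4l, 778 for mt-Nd5, 732 for mt-Nd4, 558 for mt-Nd6 and 348 for mt-Nd3. The order thus began with the catalytic subunit of cytochrome c oxidase and ended with complex I subunits. It was not graded by complex, as mt-Nd1 of complex I ranked above mt-Cytb, mt-Atp6 and mt-Co3. Levels differed although the genes of each strand share long primary transcripts. mt-Co1 alone supplied 33.1% to 42.5% of the counts of the 13 genes. The value for mt-Atp8 is uncertain because its 204 bases include the stretch shared with mt-Atp6.

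Among nuclear members, median levels were highest in complex IV (97.3 FPKM), followed by complex V (85.9), complex III (72.4), complex I (27.1) and complex II (19.7). The assembly factors, with a median of 6.13 FPKM, lower the medians of complexes I and II; the subunits alone had medians of 35.5 FPKM in complex I and 52.6 FPKM in complex II. In complex I the highest level was that of Ndufa1, an accessory subunit of the membrane arm, at 115 FPKM. The lowest was that of Ndufb2, also accessory, at 2.19 FPKM. Ndufb2 has a longest annotated transcript of 4371 bases and overlaps Braf on the opposite strand, so its level per length is uncertain.

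In complex II, Sdhd, a membrane anchor, had the highest level (82.1 FPKM) and Sdhaf3, an assembly factor, the lowest (0.956 FPKM). Complex III had the narrowest range, with Uqcr10 at 109 FPKM and Uqcrc1 at 35.8 FPKM, a ratio of 3.05. In complex IV, Cox8a led with 458 FPKM and Cox6b2, known from testis, was lowest with 1.28 FPKM. In complex V, Atp5l, a membrane subunit, had 200.1 FPKM and Atp5s, named for coupling factor B, 0.926 FPKM. All these ranks are of means over the 8 libraries, and most leaders differed in set B. There Cox6b1 averaged 223 FPKM against 148 for Cox8a, and Atp5b 216 against 143 for Atp5l. Uqcrfs1 averaged 64.0 FPKM in set B against 59.4 for Uqcr10, and Ndufc2 63.9 against 63.1 for Ndufa1. Sdhd still led complex II there, with 86.1 FPKM. Uqcr11, at 30.7 FPKM in set B, lay below Uqcrc1 at 35.9.

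**Figure D1:**
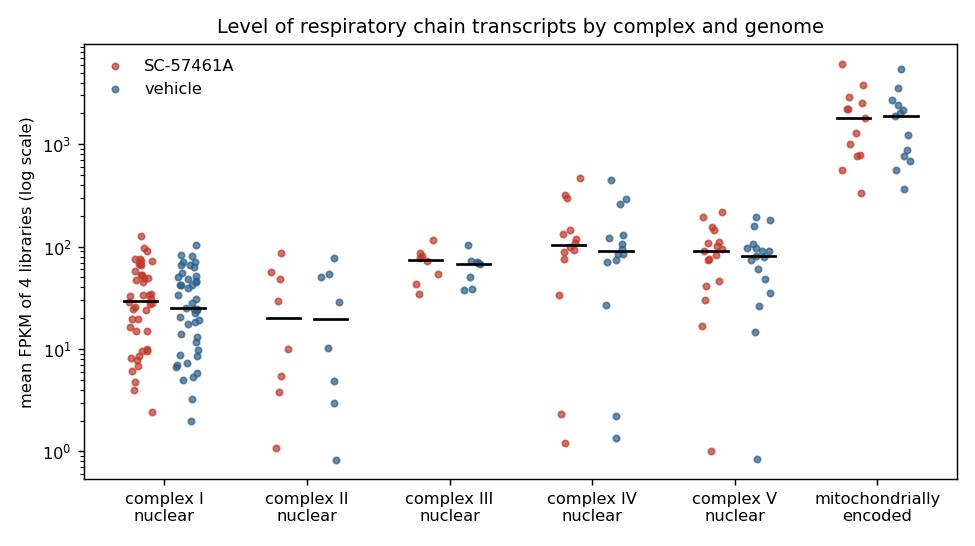
Mean FPKM of each member (log scale) over the 4 SC-57461A libraries (left in each pair) and the 4 vehicle libraries (right), by complex for nuclear members and for the mitochondrially encoded members, with the median of each group of points as a bar. The 13 mitochondrially encoded members lie above nearly all nuclear members, and the bars of the treatments lie close together in every group.

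Several complex IV and V subunits have isoform genes, and their shares differed between the treatments by less than the spread between replicates. Of the family sum of FPKM, Cox4i1, Cox6a1, Cox6b1, Cox8a and Ndufa4 each supplied over 99% in every library. These are the widely expressed isoforms, while the isoforms Cox6a2 and Cox8b are known from muscle. In the Cox7a family, Cox7a2 supplied 61.0% ± 7.22 with SC-57461A and 61.1% ± 6.58 with vehicle (SD, n = 4 each). The related Cox7a2l supplied 38.0% ± 7.69 with SC-57461A and 37.8% ± 7.06 with vehicle. Cox7a1, the heart and muscle isoform, stayed between 0.358% and 1.82% in all 8 libraries.

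The 3 genes for subunit c of ATP synthase encode the same mature protein. Atp5g2 supplied 46.9% ± 6.10 of their FPKM with SC-57461A and 47.1% ± 6.08 with vehicle. Atp5g3 supplied 45.1% ± 6.09 with SC-57461A and 45.1% ± 6.73 with vehicle, and Atp5g1 supplied 8.03% ± 0.881 with SC-57461A and 7.77% ± 0.685 with vehicle. The spread within a treatment came from the library sets: Atp5g2 averaged 52.2% in set A against 41.8% in set B, while Atp5g3 averaged 39.6% in set A against 50.6% in set B. Which of the pair was the leading subunit c transcript thus differed between the sets.

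The share of counts taken by the respiratory chain parted the library sets in both genomes. Nuclear members took 1.10% and 1.22% of all counts in SC-57461A replicates 2 and 3 and 1.00% and 1.04% in vehicle replicates 1 and 2, all of set A. In set B they took 0.692% and 0.755% in SC-57461A replicates 1 and 4 and 0.771% and 0.684% in vehicle replicates 3 and 4. Every set A library thus lay above every set B library, whichever the treatment. The mitochondrially encoded members took 2.92% and 3.26% with SC-57461A and 3.24% and 3.10% with vehicle in set A, and 2.51% and 2.46% with SC-57461A and 2.18% and 1.85% with vehicle in set B. These libraries are bulk samples, in which fewer cells of a type and less RNA per cell cannot be told apart.

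**Figure D2:**
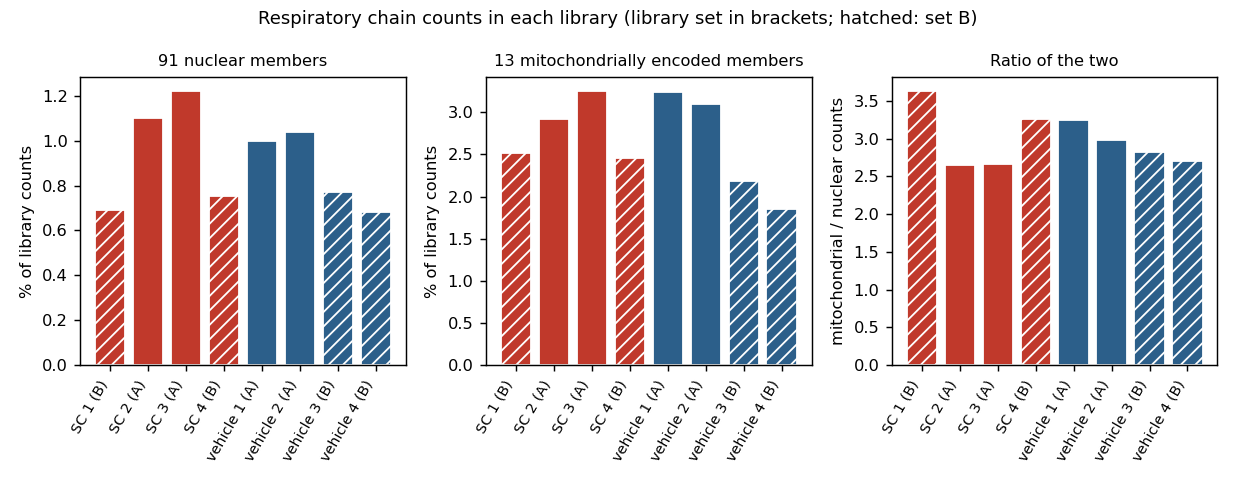
Share of library counts taken by the 91 nuclear members (left, in %), by the 13 mitochondrially encoded members (middle, in %), and the ratio of mitochondrial to nuclear counts (right), one bar per library with SC-57461A libraries left of vehicle libraries and set B hatched. Set A bars stand above set B bars in the left and middle panels, and the ratio is 2.66 in both SC-57461A libraries of set A and 3.63 and 3.26 in those of set B.

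In the set-adjusted fit of edgeR, 90 of the 104 members were higher in set A than in set B at an adjusted p under 0.05, where 26.3% of all genes tested were; since the sets were read from summed FPKM, nothing is read from that count. The median difference, as log2 of set A over set B, was 0.92 over nuclear and 0.72 over mitochondrially encoded members. Over the nuclear members by complex it was 1.34 for complex IV, 0.98 for complexes I and V, 0.93 for complex III and 0.41 for complex II. Cox8a stood farthest apart, with 799 and 811 FPKM (SC-57461A) and 703 and 761 FPKM (vehicle) in set A, against 125 and 152 FPKM (SC-57461A) and 180 and 137 FPKM (vehicle) in set B. Only 3 members were lower in set A at that threshold: Ndufs1, an iron-sulfur subunit of complex I (log2 -0.38), Sdha, the flavoprotein of complex II (log2 -0.16), and Atp5a1, the alpha subunit of complex V (log2 -0.34).

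Members with short transcripts had the larger set differences, but the way the libraries were split favours this. FPKM divides by gene length, so a count on a short transcript adds more to a library's FPKM total than one on a long transcript. Sets A and B were told apart by that total, so a relation to length is partly built in. The length values below therefore describe the split and are not a separate finding. Across the 91 nuclear members, log transcript length and the set difference had Pearson's r of -0.49 and Spearman's rho of -0.53. Across the 13 mitochondrially encoded members, r was -0.53 and rho -0.68. All points come from the same 8 libraries, so these values describe the members and carry no p-value. Transcripts under 1 kb supplied 11.4% and 13.1% of counts in SC-57461A replicates 2 and 3 and 11.0% and 10.9% in vehicle replicates 1 and 2 (set A). In set B they supplied 6.49% and 7.14% with SC-57461A and 6.995% and 5.78% with vehicle. The median difference was 1.32 over the 39 nuclear members under 1 kb and 0.58 over the 52 longer ones, beside 0.59 over all 1791 genes under 1 kb. What made the sets differ was not tested.

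**Figure D3:**
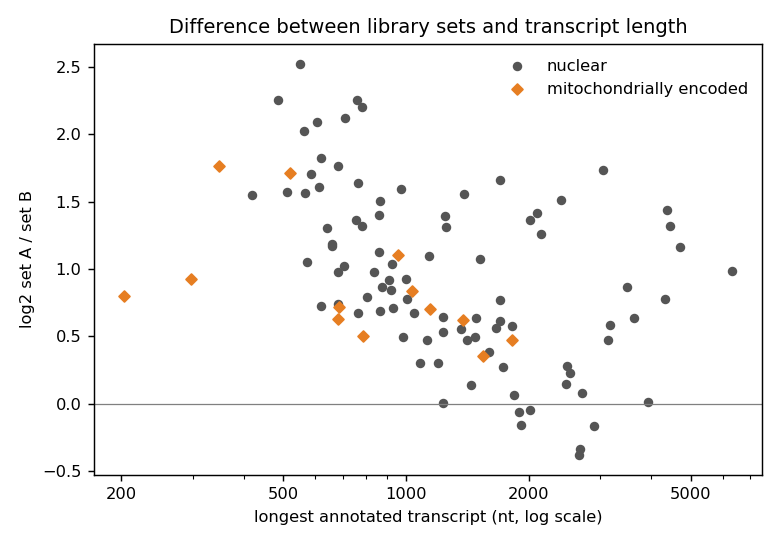
Difference between library sets (log2 of set A over set B, set-adjusted edgeR fit) against the longest annotated transcript of each member (nt, log scale). Short members reach 2.52 on the log2 scale (Cox8a), while the members below 0 all have transcripts of at least 1896 bases.

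For the treatment, few respiratory chain transcripts passed the test, while most had small positive values. In the pooled fit of edgeR, 0 of 104 members passed an adjusted p under 0.05, where 50 of 15095 genes (0.331%) did; at an unadjusted p under 0.05 the count was 1 member (Sdhaf1), where 6.68% of all genes passed. DESeq2 and limma on FPKM also called 0 members. In the set-adjusted fit, 2 members rose and 0 fell, where 5.33% of all genes were called, 2.83% as higher. No member had all 4 SC-57461A libraries above all 4 vehicle libraries, where 3.01% of all genes did, and none had all 4 below, where 3.13% of all genes did. Nothing is read from this, since in 88 of the 104 members every set A library lay above every set B library. Such members must overlap whatever the treatment does, as each set holds libraries of both treatments. At an unadjusted p under 0.05 in the set-adjusted fit, 25 members were higher and 1 was lower, where 11.2% of all genes were higher and 11.2% lower. By complex, those 25 were 17 members of complex I, 2 of complex II, 1 of complex III, 2 of complex IV and 3 of complex V.

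Ndufab1 was the complex I member that rose. It encodes the mitochondrial acyl carrier protein, which serves as a subunit of complex I and also in fatty acid and lipoic acid synthesis (ENSMUSG00000030869, mm10 chromosome 7, 122085403 to 122101886). With SC-57461A it had 75.6 and 90.6 CPM in set A and 42.3 and 43.9 CPM in set B. With vehicle it had 60.9 and 54.2 CPM in set A and 36.4 and 30.5 CPM in set B. Within each set both SC-57461A libraries were above both vehicle libraries, but the set B libraries with SC-57461A lay below the set A libraries with vehicle. The set-adjusted difference was log2 0.45 ± 0.087 (SE), a fold of 1.36, with an edgeR adjusted p of 0.0145. The difference was log2 0.53 within set A and 0.36 within set B. In the pooled fit it was log2 0.47 ± 0.31 (SE) with an adjusted p of 0.898. The gene overlaps an annotated gene on the opposite strand, Gm44986, and no source used here gives the strand setting of the counting.

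Sdhaf1, an assembly factor that helps fit iron-sulfur clusters into complex II, was the other (ENSMUSG00000074211, mm10 chromosome 7, 30321406 to 30323895). It had 11.2 and 12.8 CPM (set A) and 10.8 and 9.13 CPM (set B) with SC-57461A. It had 8.96 and 9.19 CPM (set A) and 7.55 and 7.29 CPM (set B) with vehicle. The treatments overlapped by a small margin: the lowest SC-57461A library (9.13 CPM) was just under the highest vehicle library (9.19 CPM). The set-adjusted difference was log2 0.41 ± 0.10 (SE), a fold of 1.33, with an edgeR adjusted p of 0.038, with 0.41 in set A alone and 0.42 in set B alone. Its transcript matches E130208F15Rik at 100% identity and overlaps it on the opposite strand, so its counts are uncertain.

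In the set-adjusted fit the sizes of both differences held when a library was left out, but the calls did not. Sizes ran from log2 0.37 to 0.52 for Ndufab1 and 0.37 to 0.46 for Sdhaf1. In the pooled fit they ran more widely, from log2 0.24 to 0.64 for Ndufab1 and 0.32 to 0.49 for Sdhaf1. Neither gene passed in the set-adjusted fit without vehicle replicate 1, 2 or 4 or without SC-57461A replicate 4. Over 17 alternatives Ndufab1 stayed past the threshold in 13 (adjusted p of 0.000123 to 0.0805) and Sdhaf1 in 8 (0.00906 to 0.126). The count of members called higher was 8 without vehicle replicate 3, 4 without SC-57461A replicate 2 and 1 without SC-57461A replicate 1 or 3.

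**Figure D4:**
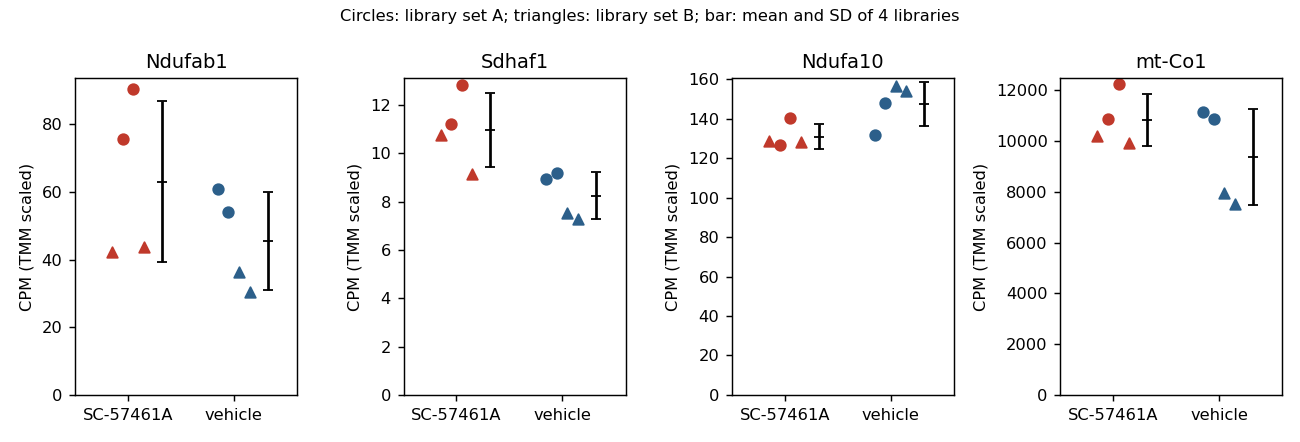
Level in CPM scaled by TMM factors of Ndufab1, Sdhaf1, Ndufa10 and mt-Co1 in each library, SC-57461A left of vehicle, with circles for set A and triangles for set B and the mean and SD of 4 libraries beside them. Ndufab1 and Sdhaf1 stand higher with SC-57461A within each set, while mt-Co1 does so in set B alone.

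The remaining members did not pass in the set-adjusted fit, and 2 of them are named here after their values were seen. Ndufv3, an accessory subunit of the NADH-binding module, had 100.01 and 118 CPM (set A) and 37.2 and 43.2 CPM (set B) with SC-57461A, against 82.2 and 85.1 CPM (set A) and 37.5 and 31.1 CPM (set B) with vehicle. The treatments overlapped in set B and not in set A, and the set-adjusted difference was log2 0.31 with an edgeR adjusted p of 0.0663. It passed in 4 of 17 alternatives, among them the transcript length offset (adjusted p = 0.039) and DESeq2 (adjusted p = 0.0147). Ndufa10, an accessory subunit of the membrane arm, was the member with an unadjusted p under 0.05 in the other direction. It had 127 and 141 CPM (set A) and 129 and 128 CPM (set B) with SC-57461A, against 132 and 148 CPM (set A) and 157 and 154 CPM (set B) with vehicle. In set B both SC-57461A libraries were below both vehicle libraries, and in set A they overlapped. The set-adjusted difference was log2 -0.17 ± 0.072 (SE), with an edgeR adjusted p of 0.19.

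As groups, the nuclear members of all 5 complexes had medians above 0 in the set-adjusted fit and each of its alternatives. In the pooled fit, however, the nuclear median was 0.20 with all libraries and -0.04 without SC-57461A replicate 3, and it was then below 0 in each of the 5 complexes. Median log2 differences in the set-adjusted fit were 0.22 for complex I, 0.13 for complex II, 0.13 for complex III, 0.15 for complex IV and 0.15 for complex V, beside 0.0044 over all genes tested. Leaving out 1 library moved them: the nuclear median, 0.16, was 0.08 without SC-57461A replicate 3 and 0.25 without vehicle replicate 3, and the mitochondrial median, 0.15, was 0.01 without vehicle replicate 4 and 0.24 without SC-57461A replicate 2. By complex the ranges were 0.14 to 0.29 (I), 0.07 to 0.19 (II), 0.05 to 0.26 (III), 0.08 to 0.24 (IV) and 0.06 to 0.22 (V). The 12 assembly factors had a median of 0.28, the 55 accessory subunits 0.18 and the 24 core subunits 0.10. The sign was positive in 83 of 91 nuclear members and 12 of 13 mitochondrially encoded members, where 7676 of the 15095 genes tested were positive. These members share libraries and are not independent of each other. Positive signs were also found in 1233 of 1791 genes under 1 kb, 83 of 85 cytosolic ribosomal proteins and 75 of 77 mitochondrial ribosomal proteins. All genes under 1 kb had a median of 0.14 in the same fit, and with an offset for transcript length the median was 0.12 over nuclear members, 0.26 over assembly factors and 0.04 over all genes under 1 kb.

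Members with and without the NRF1 core differed little in these values. The 11 with a core had a median set-adjusted log2 difference of 0.18 and 0 calls. The 65 matched members without it had a median of 0.17 and 2 calls. Among the 11, values ran from log2 -0.09 in Uqcrc1 to 0.34 in Ndufaf4. The difference between library sets had medians of 1.03 with the core and 0.92 without it.

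The treatment values of the nuclear and the mitochondrial genome went apart when each set was taken alone. In set A the median log2 difference was 0.27 over nuclear members and -0.02 over mitochondrially encoded members. In set B it was 0.05 over nuclear members and 0.33 over mitochondrially encoded members. Over all genes tested the median was 0.00016 within set A and 0.0015 within set B. The difference was larger in set A than in set B for 84 of 91 nuclear members and for 0 of 13 mitochondrially encoded members. Over all genes it was larger in set A for 7353 and in set B for 7120. The nuclear values were not particular to the chain. Cytosolic ribosomal proteins had medians of 0.33 in set A and 0.09 in set B, with 83 of 85 larger in set A. Mitochondrial ribosomal proteins had 0.26 and 0.13, with 67 of 77 larger in set A. All genes under 1 kb had 0.18 and 0.08.

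The ratio of mitochondrial to nuclear counts of the members showed the same crossing. In set A it was 2.66 and 2.66 with SC-57461A, against 3.24 and 2.98 with vehicle. In set B it was 3.63 and 3.26 with SC-57461A, against 2.83 and 2.70 with vehicle. The treatments did not overlap within either set, and the order was opposite in the 2 sets. With 2 libraries per treatment and set, no test of these ratios within a set is given.

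Counting members by overlap gave a like picture. In set A, 66 of 91 nuclear members had both SC-57461A libraries above both vehicle libraries and 0 had both below, where 23.6% of all genes were above and 24.5% below; of the mitochondrially encoded members, 0 were above and 0 below. In set B, 9 of 91 nuclear members were above and 6 below, where 23.7% of all genes were above and 22.1% below, while 10 of 13 mitochondrially encoded members were above and 0 below. The 3 that overlapped in set B were mt-Atp8, mt-Co3 and mt-Nd3.

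The test of the difference between the sets, the interaction of set and treatment in edgeR, called 0 of 104 members at an adjusted p under 0.05, and 1 gene of all those tested. At an unadjusted p under 0.05 it held 10 members, where 4.96% of all genes passed. Of these, 6 were nuclear and had the larger difference in set A: Atp5d, Atp5g2, Atp5g3, Cox5a, Ndufaf5 and Sdhaf3. The other 4 were mitochondrially encoded and had the larger difference in set B: mt-Nd5, mt-Nd4, mt-Nd4l and mt-Co1. The smallest p among members was that of mt-Nd5 (log2 -0.12 in set A and 0.30 in set B, unadjusted p = 0.00968, edgeR adjusted p = 0.908).

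The values depend on single libraries. Leaving out each library of a set in turn, the nuclear median ran from 0.13 to 0.40 in set A and from -0.06 to 0.21 in set B. The mitochondrial median ran from -0.17 to 0.10 in set A. In set B it was 0.14 without vehicle replicate 4 and 0.65 without vehicle replicate 3. Vehicle replicate 4 had the lowest share of mitochondrially encoded counts of all libraries. Of other cell types, the 6 epithelial markers summed to 33.2 to 38.1 CPM with SC-57461A and 13.2 to 20.9 CPM with vehicle in set A, and to 9.31 to 13.1 CPM with SC-57461A and 14.2 to 16.5 CPM with vehicle in set B. The 6 macrophage and monocyte markers summed to 25.2 to 46.2 CPM in set A, with Lyz2, Csf1r, C1qa and C1qb at a count of 0 in set B, where the list summed to 6.20 to 8.26 CPM. The 4 muscle markers summed to 8.90 to 12.5 CPM with SC-57461A and 2.18 to 117 CPM with vehicle in set A, and to no more than 0.591 CPM in set B. In set A the 4 neutrophil markers summed to 7.04 to 8.39 CPM with SC-57461A and 5.39 to 6.20 CPM with vehicle, and the 3 endothelial markers to 66.2 to 67.7 CPM with SC-57461A and 74.4 to 75.1 CPM with vehicle. The endothelial list summed higher in set B, to 76.7 to 80.7 CPM with SC-57461A and 77.2 to 85.2 CPM with vehicle. Its Cdh5 and Kdr had a count of 0 in set B, so the sum there was that of Pecam1. The part of these cells, and of the ILC2 markers, in the values of the members was not tested.

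**Figure D5:**
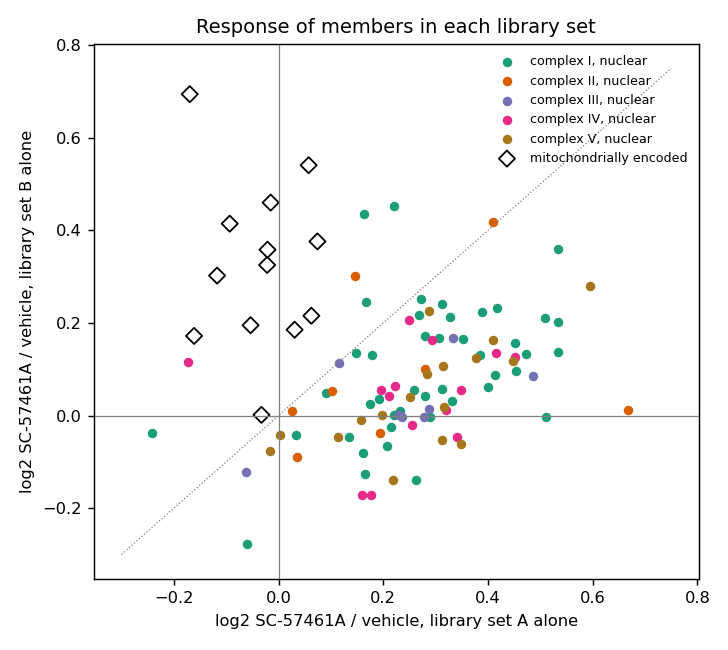
Log2 difference of SC-57461A over vehicle for each member in set A alone (horizontal) and in set B alone (vertical), with the dotted line marking equal values. Nuclear members lie mostly to the right of 0 and below the line, and the 13 mitochondrially encoded members (open diamonds) all lie above it.

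Among the mitochondrially encoded members, mt-Co1, the catalytic subunit of complex IV, had the smallest p for the treatment in the set-adjusted fit. With SC-57461A it had 10872 and 12228 CPM in set A and 10208 and 9941 CPM in set B. With vehicle it had 11139 and 10869.6 CPM in set A and 7956 and 7527 CPM in set B. The treatments overlapped in set A, while both SC-57461A libraries of set B were above both vehicle libraries of set B. The set-adjusted difference was log2 0.22 ± 0.071 (SE), with an edgeR adjusted p of 0.0916.

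For mt-Nd5, of complex I, levels were 1700.3 and 1895 CPM (set A) and 1513 and 1488 CPM (set B) with SC-57461A. With vehicle they were 2069 and 1842 CPM (set A) and 1269 and 1158 CPM (set B). The single SC-57461A library that exceeded a vehicle library of set A did so by a small margin. mt-Nd6 is encoded on the opposite strand to the other 12 and lies antisense next to mt-Nd5. Its level was 26.1% and 27.4% of that of mt-Nd5 in CPM with SC-57461A, and 28.4% and 27.1% with vehicle, in set A. In set B it was 12.3% and 14.2% with SC-57461A, and 13.6% and 6.27% with vehicle. The ratio thus followed the library set, and the treatments overlapped within each set.

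Counts of 6 of the 13 genes cannot be separated from a nuclear copy of mitochondrial DNA. A stretch of chromosome 1 (mm10, 24611535 to 24615565) carries annotated copies of mt-Co2, mt-Atp6, mt-Co3, mt-Nd3, mt-Nd4l and mt-Nd4 with at least 99.7% identity. The copy of mt-Co2, Gm28661, had 0.989 to 1.01 times the count of mt-Co2 in every library. The copies of mt-Co3 (Gm28437, 1.00 to 1.02), mt-Nd3 (Gm28438, 0.955 to 0.979) and mt-Nd4l (Gm10222, 1.01 to 1.02) also matched their genes closely, and the copy of mt-Atp6 (Gm10925) had 1.08 to 1.15 times its count. The copy of mt-Nd4 (Gm28439) had 0.344 to 0.466 times its count. The copies took 0.571% to 0.837% of library counts with SC-57461A and 0.426% to 0.823% with vehicle. Their set-adjusted differences followed those of the genes, with log2 0.14 for both Gm28661 and mt-Co2. The levels of these 6 genes are therefore uncertain as absolute values, and no source used here gives how the authors assigned reads that match 2 places. mt-Atp8 lies between mt-Co2 and mt-Atp6 and shares its end with mt-Atp6, so its count is uncertain too, although no annotated copy of it was found. mt-Co1 and mt-Nd5 have annotated copies with few counts: Gm13340 (97.6% identity) had 236 to 559 counts, against 456339 to 683953 for mt-Co1, and Gm4076 (95.2% identity) had 0 to 7 counts, against 72790 to 127030 for mt-Nd5. No near-identical annotated copy was found for mt-Nd1, mt-Nd2, mt-Nd6 or mt-Cytb.

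The ribosomal RNAs of the mitochondrial chromosome are not members and did not pass the test. mt-Rnr2 had a log2 difference of -0.70 in set A and 0.19 in set B (set-adjusted -0.26, edgeR adjusted p = 0.469), and mt-Rnr1 had -0.61 in set A and 0.21 in set B (set-adjusted -0.20, adjusted p = 0.678).

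Other genes that serve the chain were taken from lists by function, and in the pooled fit of edgeR 0 genes of any list were called. In the set-adjusted fit no gene of any list fell. The counts of genes that rose are to be read against the 2.83% of all genes tested that were called higher in that fit. Of 39 tested assembly factors outside the name rule, 4 rose, with a list median of log2 0.12. They were Cox19 and Cox11 of complex IV assembly, Tmem126b of the complex I assembly machinery and Uqcc1 of complex III assembly. Cox19 averaged 26.6 ± 9.74 CPM with SC-57461A and 19.3 ± 5.89 CPM with vehicle (SD, n = 4 each; log2 0.43, edgeR adjusted p = 0.0116). Tmem126b averaged 18.3 ± 2.25 CPM with SC-57461A and 13.5 ± 1.83 CPM with vehicle (log2 0.44, edgeR adjusted p = 0.0261). Uqcc1 averaged 30.2 ± 1.95 CPM with SC-57461A and 24.2 ± 1.41 CPM with vehicle (log2 0.32, edgeR adjusted p = 0.0382). Cox11 had log2 0.37 with an edgeR adjusted p of 0.0454.

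Of 12 electron carriers and partner genes, 1 rose, the ADP/ATP carrier Slc25a5, which exchanges the ATP made by complex V. It averaged 671 ± 217 CPM with SC-57461A and 549 ± 140 CPM with vehicle (log2 0.27, edgeR adjusted p = 0.0444). Of 30 genes of mitochondrial DNA upkeep and RNA processing, 2 rose: Hsd17b10, a subunit of mitochondrial RNase P (log2 0.41, edgeR adjusted p = 0.0163), and Slirp, an RNA-binding partner of mitochondrial mRNAs (log2 0.45, adjusted p = 0.0457). Of the 16 genes of the tricarboxylic acid cycle and pyruvate dehydrogenase, 1 rose, the fumarase gene Fh1 (log2 0.28, edgeR adjusted p = 0.0492). Of 77 mitochondrial ribosomal proteins, 4 rose (Mrps18b, Mrpl42, Mrpl34 and Mrpl12, log2 0.27 to 0.37), and of 85 cytosolic ribosomal proteins 1 rose, Rpl7l1 (log2 0.33), a share below that of all genes. The 13 called genes of these lists stayed past the threshold in 3 (Mrpl34) to 15 (Cox19) of 17 alternatives. Of the 13, Tmem126b, Uqcc1 and Mrps18b had all 4 SC-57461A libraries above all 4 vehicle libraries, where 3.01% of all genes did. The 13 were picked by a test on the same libraries, so this adds nothing to their calls.

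The 13 tested genes of coenzyme Q synthesis and the 9 tested transcription factors and coactivators of respiratory genes had 0 calls. The list medians were log2 0.18 for mitochondrial ribosomal proteins, 0.22 for cytosolic ribosomal proteins, 0.09 for mitochondrial DNA and RNA genes, 0.06 for the tricarboxylic acid cycle, 0.06 for electron carriers, 0.01 for coenzyme Q synthesis and -0.03 for the transcription factors. The median of the cytosolic ribosomal proteins, which belong to no respiratory complex, was thus above that of the nuclear members (0.16).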

How the data were processed

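Transcripts of 8 ILC2 libraries were measured by RNA-seq of total RNA. Per the submitters' processing notes, FastQC and cutadapt 4.7 were run and mm10 was the build. Aligner, counting tool, strand setting and handling of reads with several matches are not stated in any source used here. Per the file headers, the deposited table gives each gene an unnormalized count and an FPKM value per library, both made by the authors. There were 0 unmatched value columns. The counts were filtered (filterByExpr), scaled (TMM) and tested over all 15095 kept genes with the two-sided quasi-likelihood test of edgeR 4.0.16 in R 4.3.3, with Benjamini-Hochberg adjustment and a threshold of 0.05. The pooled fit has treatment alone, and the set-adjusted fit adds library set. CPM values are TMM scaled, except those of cell type markers, which use library totals. Alternatives used limma 3.58.1 on log2(FPKM + 1) or log2(FPKM + 0.1), DESeq2 1.42.0, other scalings and filters, a transcript length offset (spline, 5 degrees of freedom), a replicate block and leaving out each library. A count of 0 allows up to 3 counts, counting error only.

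The members, gene lists and library sets were chosen with earlier results of these data known. The tests were tested on simulated data. Named genes are the members called, the mitochondrially encoded genes, the highest and lowest nuclear member of each complex, members of isoform families and up to 4 called genes of each list; further genes are said to have been named after their values were seen or are examples from a count. Of 25367 genes, 24998 had a GENCODE M21 symbol. Of the 104 members, 48 overlap another gene and 16 have a near-identical copy (BLAST 2.17.0, identity of 95% or more across 50% or more of its length). Promoter sequences are from RefSeq (GRCm38.p6). Tables and plots used matplotlib 3.10.9, scipy 1.17.1, numpy 2.4.6 and pandas 2.3.3 under Python 3.11.15.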

Additional observations from a re-analysis of the deposited data

Results flagged for a closer look

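Of 80 sets of 4 values checked, 2 held a library far from the other 3, and chance flags about 1 in 20. Both concern Atp5s, the complex V gene with the lowest level. With SC-57461A it had 0.890, 0.923, 1.37 and 0.859 FPKM in replicates 1 to 4, and the gap below replicate 3 was 0.873 of the whole range. With vehicle it had 0.915, 0.808, 0.826 and 0.817 FPKM in replicates 1 to 4, and the gap below replicate 1 was 0.837 of the whole range. Both ratios are above Dixon's critical value for 4 samples at the 95% level.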

How the results depend on the processing

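In the pooled fit the count of members called was 0 higher and 0 lower under every alternative run except the library set as a term, which gave 2 higher. In the set-adjusted fit the count of higher members, 2, was 1 with no filter on low counts, 8 with DESeq2, 5 with the replicate block together with the library set, 1 with limma on log2(FPKM + 1) with library set and 3 with the transcript length offset. Leaving out 1 library gave 0 to 8. Same-numbered libraries had correlations of -0.587, 0.635, -0.561 and 0.608 over numbers 1 to 4. Both libraries numbered 2 or 4 lie in the same set and those numbered 1 or 3 in opposite sets, so the signs follow the sets. They cannot show whether the replicate numbers pair the samples. With the replicate block alone the pooled count was 0. Of 315 alternative medians by complex and genome, 301 were positive and 14 negative, and none of the 14 came from the set-adjusted fit. When a library was left out, the pooled medians ran from -0.038 to 0.40 for complex I, -0.022 to 0.22 for II, -0.093 to 0.40 for III, -0.087 to 0.41 for IV and -0.076 to 0.39 for V, and the mitochondrial median within set B from 0.14 to 0.65. The cause of these changes was not tested. With 2 libraries per treatment and set, the values within a set carry little precision; counting error matters most for Cox7a1, the member with the fewest counts (10 to 100 per library).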
